A study of Arabidopsis thaliana with 6 samples.

Results

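The WRKY transcription factor genes of Arabidopsis thaliana were followed in wild-type seedlings kept under sound for 48 h. Members were all entries of the count tables whose symbol is WRKY followed by a number, which gave 67 of 32921 named entries. Of these, 49 were expressed, taken as a mean of at least 0.5 CPM over the 6 libraries, and 47 had enough counts to be tested. Levels are given in CPM, a gene's count relative to the total of its library, with totals scaled by edgeR's TMM factors.

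The study used whole wild-type seedlings on agar plates wrapped in foil against light, inside a sound-proof facility. One group received recorded urban traffic noise, at 75 dB on average, and the other received background white noise, at 10 dB on average, as the control. Each group held 3 libraries, made from total RNA with a kit that reads the 3′ ends of transcripts. Counts from such libraries do not grow with transcript length, so CPM levels can be set beside each other between genes. The kind of sound and its level differed together, so their effects cannot be told apart. The labels do not state whether replicates are separate sowings or plates, so the spread behind each p-value may be technical.

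WRKY proteins are a large plant family of DNA-binding factors, named after the signature WRKYGQK in their binding domain, which is followed by a zinc finger. They bind the W-box, a short promoter motif built around TTGAC, and many WRKY promoters hold W-boxes themselves. Members act downstream of immune receptors and MAP kinase cascades and set the balance of salicylate and jasmonate defence, leaf senescence, abscisic acid signalling and nutrient stress. Many are low in unstressed seedlings and respond quickly to pathogens, wounding or other stress.

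The binding signature is shown for 8 members on which the results turn, to let subgroups and close pairs be compared by eye. Sequences are from RefSeq's TAIR10.1 assembly, read 5′ to 3′ on the coding strand. Capitals mark the 21 bases that encode WRKYGQK, or its variant WRKYGKK in WRKY50, with 9 bases on either side in lower case. WRKY33 carries a pair of signatures, and both are given.
WRKY70, chr3:20909751-20909789, minus strand: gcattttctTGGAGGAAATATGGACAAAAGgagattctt
WRKY41, chr4:6759870-6759908, plus strand: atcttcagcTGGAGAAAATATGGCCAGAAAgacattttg
WRKY53, chr4:12393125-12393163, minus strand: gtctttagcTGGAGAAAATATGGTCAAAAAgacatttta
WRKY40, chr1:30384780-30384818, plus strand: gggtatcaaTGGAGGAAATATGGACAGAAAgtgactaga
WRKY11, chr4:15290350-15290388, minus strand: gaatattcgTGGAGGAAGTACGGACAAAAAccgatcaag
WRKY17, chr2:10437961-10437999, minus strand: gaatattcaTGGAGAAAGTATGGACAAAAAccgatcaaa
WRKY33, first signature, chr2:16109349-16109387, plus strand: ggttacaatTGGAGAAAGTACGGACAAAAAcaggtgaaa
WRKY33, second signature, chr2:16109973-16110011, plus strand: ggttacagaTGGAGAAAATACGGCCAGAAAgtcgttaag
WRKY50, chr5:9147570-9147608, minus strand: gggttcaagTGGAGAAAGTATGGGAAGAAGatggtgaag

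Over all 67 members the coding sequences held 77 signatures in 61 different codon spellings, with 1 signature in most members and 2 in 10 of them. Those 10 all belong to group I, the class defined by a pair of WRKY domains, while the group I members WRKY10 and WRKY19 showed 1 each in the gene models used. The zinc finger was of the C2HC type in 12 members, exactly the 12 of group III, and of the C2H2 type in the other 55. The variant WRKYGKK was found in 3 members, WRKY50, WRKY51 and WRKY59, all of group IIc. The proteins ran from 109 to 1895 residues. The annotation names a group for 48 members, and it was the group used here for 46; WRKY45 and WRKY23 are annotated as group I and are kept in IIc here.

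The libraries held 17540009 to 20780363 counts on named entries, so that 3 counts, taken as the floor of detection, correspond to 0.147 to 0.173 CPM, for counting error only. Control replicate 3 stood apart from the rest: it detected 16128 loci, where the other 5 libraries detected 20026 to 20287, and its mean correlation with them was 0.742, where theirs were 0.810 to 0.829 (Pearson's r of log2 CPM across loci, which are not independent). As a check of the labelled tissue, summed levels of 10 green tissue markers were 6250 to 6630 CPM in traffic noise and 5790, 6990 and 10600 CPM in control, the last being replicate 3, with 0 of the 10 markers undetected. Log2 fold changes of traffic noise over control were positive for 2 of these markers and negative for 8, with a median of -0.42. Over all tested loci 52.5% were positive and the median was 0.05. Among the 10 markers, 1, CAB1, was wholly higher in traffic noise and 1, RBCS3B, wholly lower. CAB1 passed DESeq2's test (adjusted p = 0.0482) but not edgeR's quasi-likelihood test (adjusted p = 0.493). Summed levels of 10 root markers were 66.7 to 68.9 CPM in traffic noise and 58.4 to 86.0 CPM in control. Most of that came from SHR and SCR, and 5 of the 10 had enough counts to be tested. SHV2 was at 0 in every library, and PLT2 and RHD6 had counts in 1 library each. Seed maturation markers, 14 in all, summed to 24.7 to 64.5 CPM and 26.3 to 68.7 CPM, most of it from the oil body gene OLEO3, and SESA2 and SESA4 were at 0 throughout. In whole seedlings, fewer cells of a type and less RNA per cell cannot be told apart.

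More WRKY transcripts were counted after traffic noise, without the groups standing clear of each other. The family summed to 457, 424 and 438 CPM in the traffic noise libraries and to 343, 431 and 284 CPM in the control libraries, or 440 ± 16.3 and 353 ± 74.1 CPM (SD, n = 3 each). Control replicate 2 lay inside the traffic noise range, and control replicates 1 and 3 lay below it. Of the 67 members, 50, 46 and 48 had at least 1 count in the traffic noise libraries and 42, 49 and 33 in the control libraries. Among the 49 expressed members, 0, 5 and 3 were at 0 in the traffic noise libraries and 8, 3 and 16 in the control libraries. Control replicate 3 therefore lacked the most members, and for 7 expressed members it was the single library at 0.

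The family's level was carried by few genes. The 8 highest members held 54.9% of its summed mean CPM, 13 members averaged at least 10 CPM, and 44 averaged at least 1 CPM. WRKY28 and WRKY74, at 0.532 and 0.521 CPM, lay just above the limit for expression and were not tested, and WRKY35 and WRKY42, at 0.435 and 0.377 CPM, lay just below it. A further 5 members below the limit, WRKY8, WRKY34, WRKY54, WRKY62 and WRKY66, had counts in 1 library each, as WRKY54 did at 1.04 CPM in control replicate 2. The other 11 had no count in any library. These were WRKY10, which acts in the endosperm of seeds, WRKY12, WRKY24, WRKY30, WRKY43, WRKY55, WRKY56, WRKY64, WRKY67, WRKY68 and WRKY71. Counts were present in all 6 libraries for 30 of the expressed members.

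**Figure D1:**
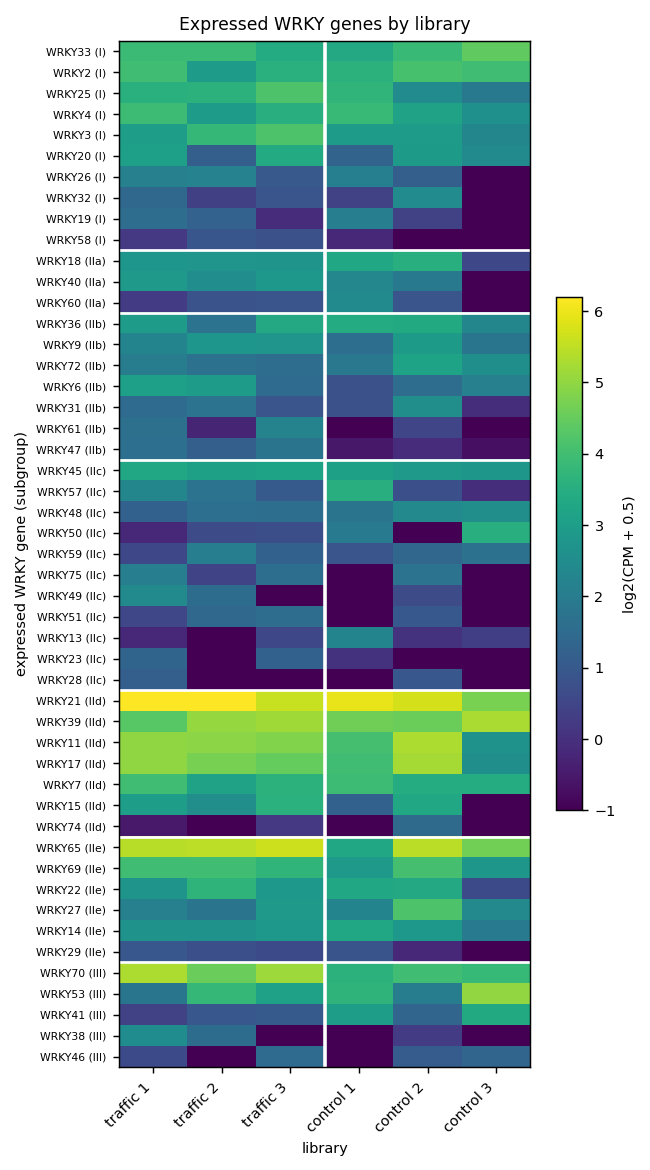
Level of the 49 expressed WRKY genes (vertical, by subgroup) in the 3 traffic noise and 3 control libraries (horizontal), as log2(CPM + 0.5). The bright lines include group IId and IIe genes, led by WRKY21 and WRKY65, and WRKY70 of group III. The column of control replicate 3 has the most cells at the bottom of the scale, with 16 genes at 0.

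No WRKY gene passed the test for a difference between traffic noise and control. With edgeR's quasi-likelihood test and Benjamini-Hochberg adjustment over 19112 loci, 0 of 47 tested members were called, against 0.0105% of all loci (2 loci). DESeq2 called 0 of the 2 members to which it gave an adjusted p, WRKY21 and WRKY65, against 4.9% of the loci with one, and limma-voom called 0 of 47, against 0.0628%. At an unadjusted edgeR p under 0.05 there were 2 members, WRKY70 and WRKY41, or 4.26% of those tested, against 7.46% of all loci. DESeq2 gave 3 of 56 members with a fold change an unadjusted p under 0.05, WRKY47 being the added one, against 8% of loci, and limma-voom gave 2 of 47, WRKY65 and WRKY70, against 9.6%.

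The fitted differences leaned to higher levels after traffic noise, and single libraries moved the size of that lean. Log2 fold changes of traffic noise over control were positive for 29 tested members and negative for 18, so that 61.7% were positive, against 52.5% of all tested loci. Their median was 0.32, against 0.05 over all loci, and they ran from -2.44 to 3.38, with 30 within 1 of zero. The median was 0.20 without control replicate 3 and 0.74 without control replicate 2. Standard errors ran from 0.34 to 2.57, and the fold change was more than 2 standard errors in 2 members, WRKY70 and WRKY41. All traffic noise libraries lay above all control libraries in 6 tested members, or 12.8%, against 8.99% of all loci, and below them in 2, or 4.26%, against 7.39%. The members above were WRKY3, WRKY40, WRKY45, WRKY47, WRKY58 and WRKY70, and those below were WRKY41 and WRKY48.

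Spread between replicates was wider in the control group. The SD was the larger in control for 32 of 49 expressed members, or 65.3%, where the share over all tested loci was 67%. Control replicate 3 was the lowest library for 21 tested members, or 44.7%, against 35.5% of all tested loci, and the highest for 6 of 47, against 24.1%. The common biological coefficient of variation over the whole table was 0.757.

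**Figure D2:**
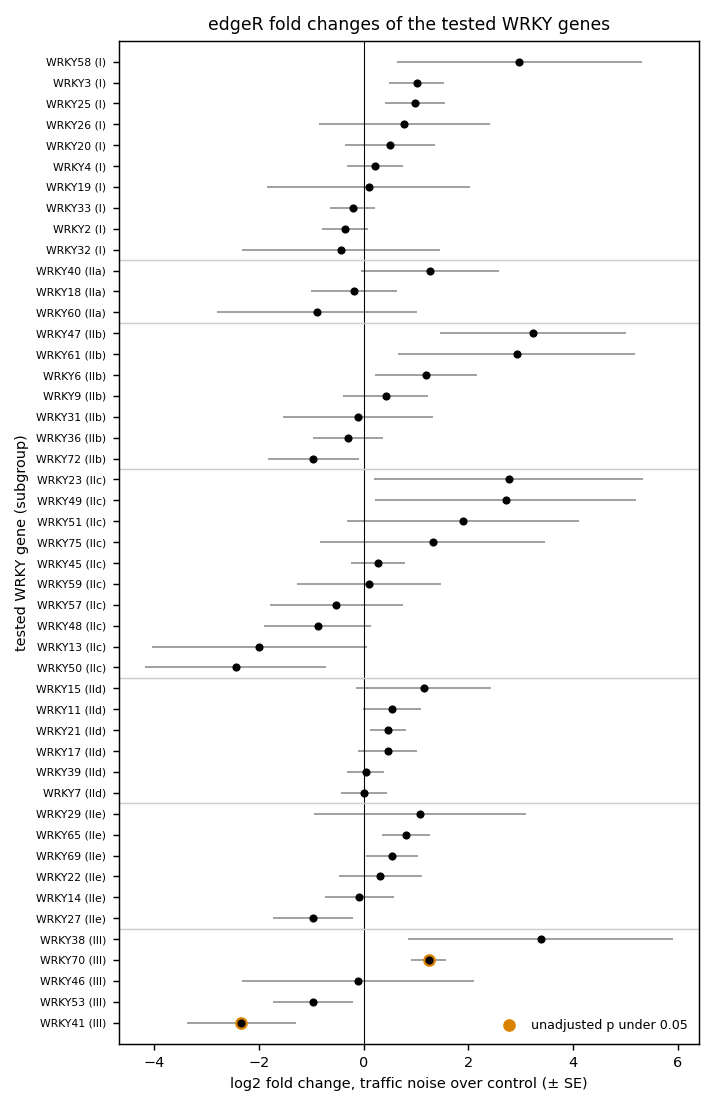
Fitted log2 fold change of traffic noise over control, with its standard error as a horizontal line, for the 47 tested WRKY genes (vertical, by subgroup). Most lines cross zero, the 29 positive values outnumber the 18 negative ones, and WRKY70 and WRKY41, in orange, are the 2 genes with an unadjusted p under 0.05.

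Group III, whose members have the C2HC finger and act mainly in salicylate defence and senescence, held both genes with the smallest p-values. WRKY70, which favours salicylate over jasmonate responses and restrains senescence, was at 38.8, 23.1 and 34.4 CPM in traffic noise and at 11.7, 15.4 and 13.5 CPM in control. All traffic noise libraries lay above all control libraries. The fitted log2 fold change and its standard error were 1.24 ± 0.34 (edgeR's quasi-likelihood test, unadjusted p = 0.00428, adjusted p = 0.493). The group means were 32.1 ± 8.08 and 13.5 ± 1.84 CPM (SD, n = 3 each). With each library left out in turn the fold change stayed between 1.09 and 1.45, and it was 1.24 without control replicate 3.

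WRKY41, known for its part in seed dormancy and in responses to bacteria, lay the other way. It was at 0.837, 1.43 and 1.56 CPM in traffic noise and at 7.70, 2.02 and 9.73 CPM in control, so that the groups did not overlap, with control replicate 2 close to the traffic noise range. The log2 fold change was -2.34 ± 1.04 (edgeR adjusted p = 0.667, unadjusted p = 0.0474), and it was -1.92 without control replicate 3. WRKY53, a promoter of leaf senescence and the nearest relative of WRKY41 among the expressed members, was at 3.00, 13.3 and 8.11 CPM in traffic noise and at 12.4, 3.66 and 31.9 CPM in control. Its groups overlapped, and the log2 fold change of -0.97 ± 0.76 became 0.02 without control replicate 3, the highest library. The coding sequences of WRKY41 and WRKY53 were 80.5% identical over 389 aligned bases, and 89 bases near their 3′ ends were 75.3% identical.

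The remaining group III genes were low. WRKY46, which acts in basal defence and in brassinosteroid-driven growth with WRKY54 and WRKY70, was at 1.03, 0 and 2.35 CPM in traffic noise and at 0, 1.64 and 2.02 CPM in control. The groups overlapped, with a log2 fold change of -0.11 ± 2.22. WRKY54 was not expressed by the limit above, and WRKY30 had no counts. Over the 12 group III members, 5 were expressed, and the median log2 fold change of those 5 was -0.11.

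**Figure D3:**
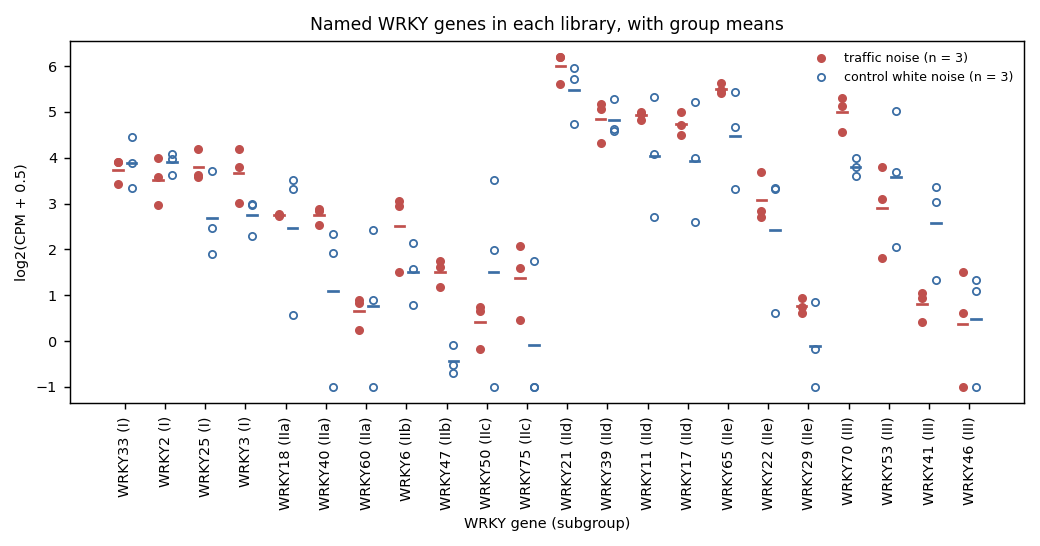
Level of 22 named WRKY genes in each library as log2(CPM + 0.5), with traffic noise (filled) left of control (open) for each gene, group means as short lines, n = 3 each. WRKY3, WRKY40, WRKY47 and WRKY70 lie wholly higher and WRKY41 wholly lower in traffic noise, and open points at the bottom are control libraries with 0 counts.

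Group I, with a pair of WRKY domains, had 10 expressed genes of 12 and a median log2 fold change of 0.36. WRKY33, needed for camalexin synthesis and for resistance to necrotrophic fungi, was at 14.4, 14.4 and 10.2 CPM in traffic noise and at 9.62, 14.2 and 21.3 CPM in control. The ranges overlapped, and its log2 fold change was -0.21 ± 0.43, or 0.13 without control replicate 3. WRKY25, a partner of WRKY33 in heat tolerance and like it a partner of MKS1, a substrate of the kinase MPK4, was at 11.4, 11.9 and 17.7 CPM in traffic noise and at 12.5, 5.02 and 3.23 CPM in control. Control replicate 1 alone reached the traffic noise range, and the log2 fold change was 0.98 ± 0.58, or 1.73 without that library.

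WRKY3, which with WRKY4 limits necrotrophic disease, was at 7.58, 13.3 and 17.8 CPM in traffic noise and at 7.36, 7.43 and 4.38 CPM in control. The groups did not overlap, but traffic noise replicate 1 was close to control replicates 1 and 2. Its log2 fold change was 1.01 ± 0.52 (edgeR quasi-likelihood test, unadjusted p = 0.0798). WRKY2, which acts in the zygote and in abscisic acid control of germination, was at 15.4, 7.28 and 11.4 CPM in traffic noise and at 11.9, 16.5 and 15.2 CPM in control. These ranges overlapped, with a log2 fold change of -0.35 ± 0.44.

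Group IIa holds WRKY18, WRKY40 and WRKY60, which bind one another and act as partly redundant regulators of defence and abscisic acid signalling; the 3 genes did not share a direction. WRKY40 was at 6.89, 5.27 and 6.69 CPM in traffic noise and at 4.56, 3.28 and 0 CPM in control, with no overlap. Its log2 fold change was 1.26 ± 1.32 and came to 0.68 without control replicate 3, the library at 0. WRKY18 was nearly constant in traffic noise, at 6.35, 6.20 and 6.11 CPM, and scattered in control, at 9.42, 10.9 and 0.979 CPM.

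The traffic noise values of WRKY18 thus lay between those of the control libraries, and its log2 fold change was -0.19 ± 0.82, or -0.70 without control replicate 3. WRKY60 was at 0.689, 1.28 and 1.37 CPM in traffic noise and at 4.86, 1.37 and 0 CPM in control. Here too control spanned the traffic noise values (log2 fold change -0.90 ± 1.91). Control replicate 3 was the lowest library for all 3 genes of the group.

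Group IIb, with 7 of 8 genes expressed and a median log2 fold change of 0.42, contained the largest non-overlapping difference in fold terms among the named members. WRKY47 was at 2.56, 1.77 and 2.88 CPM in traffic noise and at 0.196, 0.437 and 0.115 CPM in control, where replicate 3 was below the floor of detection. All traffic noise libraries were higher, with means of 2.41 ± 0.572 and 0.249 ± 0.167 CPM (SD, n = 3 each). A log2 fold change of 3.24 ± 1.78 was fitted (edgeR's quasi-likelihood test, adjusted p = 0.775), or 2.90 without control replicate 3. WRKY6, which acts in senescence and represses the phosphate exporter gene PHO1, was at 7.83, 7.19 and 2.35 CPM in traffic noise and at 1.23, 2.46 and 3.92 CPM in control. The groups overlapped through traffic noise replicate 3 (log2 fold change 1.19 ± 0.97).

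Group IIc, the largest, had 11 of 18 members expressed, and 6 of the 11 members without any count belong to it. WRKY50, which carries the WRKYGKK variant and links fatty acid signals to jasmonate defence, was at 0.394, 1.08 and 1.17 CPM in traffic noise and at 3.48, 0 and 10.9 CPM in control. Its control libraries lay on both sides of the traffic noise values, and the log2 fold change of -2.44 ± 1.73 became -0.97 without control replicate 3. WRKY75, known for phosphate starvation and senescence, was at 3.69, 0.886 and 2.54 CPM in traffic noise and at 0, 2.84 and 0 CPM in control. A log2 fold change of 1.32 ± 2.15 was fitted across these overlapping groups. It was 0.74 without control replicate 1 or 3, 4.04 by limma-voom and 8.56 without control replicate 2, where every control library left is at 0 and the fitted value is no measure of size. The median over the 10 tested members of the group was 0.18.

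Group IId, whose members bind calmodulin, was the most abundant and had all 7 members expressed. It summed to 178, 175 and 158 CPM in traffic noise and to 134, 174 and 86.6 CPM in control, with control replicate 2 inside the traffic noise range. WRKY21, the most abundant WRKY gene here, was at 72.3, 72.6 and 48.0 CPM in traffic noise and at 61.3, 52.2 and 26.3 CPM in control. Its groups overlapped (log2 fold change 0.46 ± 0.34), and the value was 0.18 without control replicate 3. WRKY39, which acts in heat tolerance, was at 19.6, 32.8 and 35.7 CPM in traffic noise and at 24.2, 23.3 and 38.3 CPM in control, a log2 fold change of 0.04 ± 0.35 between overlapping groups.

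WRKY11 and WRKY17, which together restrain resistance to bacteria, had similar values within each library. WRKY11 was at 31.3, 30.4 and 27.9 CPM in traffic noise and at 16.3, 39.4 and 5.99 CPM in control. WRKY17 was at 31.2, 25.9 and 22.2 CPM in traffic noise and at 15.4, 36.9 and 5.53 CPM in control. The ratio of WRKY11 to WRKY17 was 1.00, 1.17 and 1.26 in the traffic noise libraries and 1.06, 1.07 and 1.08 in the control libraries, while both genes were highest in control replicate 2 and lowest in control replicate 3.

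The coding sequences of this pair were 76.3% identical over 989 aligned bases, and 162 bases within the last 400 of their transcripts were 71% identical. The sources used here do not give how reads matching several places were counted, and whether shared reads bear on the similar values was not tested. The log2 fold changes were 0.54 ± 0.55 for WRKY11 and 0.46 ± 0.56 for WRKY17. They depended on control: without replicate 3 they were 0.10 and 0.02, and without replicate 2 they were 1.42 and 1.34.

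Group IIe had 6 of 7 genes expressed and a median log2 fold change of 0.43. WRKY65, the second most abundant WRKY gene, was at 42, 44 and 49.3 CPM in traffic noise and at 9.42, 42.8 and 24.9 CPM in control. Control replicate 2 lay between traffic noise replicates 1 and 2, and the means were 45.1 ± 3.77 and 25.7 ± 16.7 CPM (SD, n = 3 each). Its log2 fold change was 0.81 ± 0.46, and without control replicate 1, its lowest library, it was 0.41. WRKY22 and WRKY29 are induced by the flagellin MAP kinase cascade, and WRKY22 also acts in senescence in the dark.

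WRKY22 was at 6.06, 12.4 and 6.65 CPM in traffic noise and at 9.52, 9.56 and 1.04 CPM in control. The traffic noise values surrounded control replicates 1 and 2 (log2 fold change 0.32 ± 0.79, or -0.19 without control replicate 3). WRKY29 was at 1.43, 1.18 and 1.03 CPM in traffic noise and at 1.32, 0.382 and 0 CPM in control, which overlapped in control replicate 1 (log2 fold change 1.08 ± 2.02).

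The other 27 expressed members averaged 0.521 to 12.2 CPM. Of their 25 tested genes, 15 had log2 fold changes above 0 and 9 below, while WRKY7, a calmodulin-binding member, was at 0.00 (fold 0.999, counted as negative among the 18 above). The extremes were 3.38 ± 2.53 for WRKY38, a repressor of basal defence with counts in traffic noise replicates 1 and 2 and control replicate 2 only, and -1.99 ± 2.06 for WRKY13. These 2 genes were picked here as the ends of the range, after their values were seen.

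Overlap with other genes limits how some of these values can be read. Of the expressed members, 10 overlap a protein-coding locus in the TAIR10.1 annotation, all of them on the opposite strand, and in 9 the 3′ end of the WRKY gene lies inside the neighbour. Overlaps with protein-coding loci ran from 26 to 517 bases over all members. Of the expressed members, 4 shared more than 200 bases with such a locus: WRKY29, WRKY41, WRKY53 and WRKY69. Long non-coding RNA loci on the opposite strand also overlapped WRKY33 by 272 bases, WRKY61 by 216 and WRKY69 by 345, away from the 3′ end. The sources used here do not give whether counting used the strand. If it did not, reads within an overlap cannot be assigned to the WRKY gene or to its opposite neighbour.

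WRKY41 shares 517 bases with 3xHMG-box1, which encodes a chromosomal protein of dividing cells. The neighbour was at 3.55, 7.33 and 7.09 CPM in traffic noise and at 15.2, 5.02 and 15 CPM in control. In both genes control replicates 1 and 3 were the highest libraries, but the ratio of WRKY41 to its neighbour was 0.236, 0.195 and 0.220 in traffic noise and 0.507, 0.402 and 0.649 in control, with no overlap. The neighbour's log2 fold change was -0.97 ± 0.60, against -2.34 ± 1.04 for WRKY41.

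WRKY53 shares 341 bases with 3xHMG-box2, a gene of the same kind, which was at 10.7, 16.5 and 10.7 CPM in traffic noise and at 25, 12.4 and 38.1 CPM in control. Both genes had the same order of control libraries, with log2 fold changes of -1.0 ± 0.45 for 3xHMG-box2 and -0.97 ± 0.76 for WRKY53. WRKY69, chosen here for its overlap of 373 bases after its values were seen, was at 15.3, 15.4 and 12.6 CPM in traffic noise and at 6.97, 16.4 and 6.51 CPM in control. Its neighbour AT3G58720 was at 15.2, 15.4 and 11.5 CPM in traffic noise and at 1.37, 14.7 and 2.65 CPM in control. The levels were nearly equal in all 3 traffic noise libraries, with ratios of 1.00 to 1.10, and in control replicate 2, but not in control replicates 1 and 3, with ratios of 5.09 and 2.46.

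**Figure D4:**
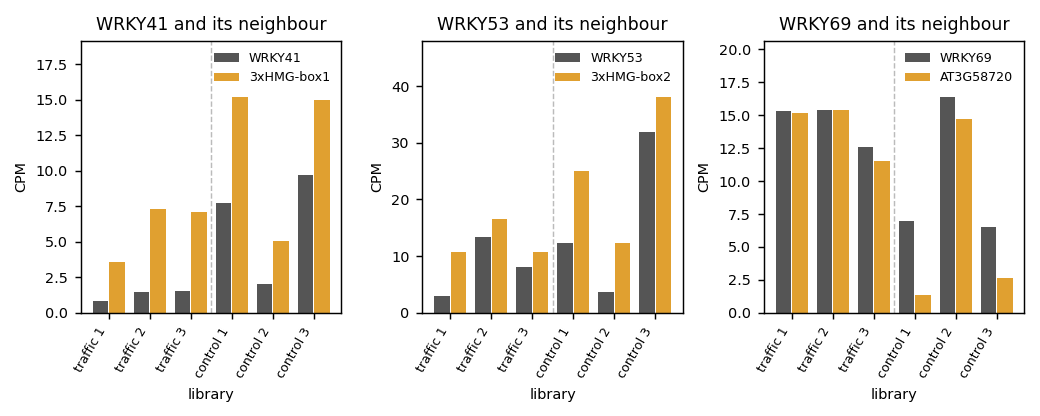
CPM of 3 WRKY genes (dark) and of the gene on the opposite strand that overlaps their 3′ end (light), in traffic noise libraries (left of the dashed line) and control libraries (right of it). WRKY41 and WRKY53 share the highest control libraries with their neighbours, and WRKY69 and AT3G58720 have nearly equal bars in 4 of the 6 libraries.

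W-boxes were looked for upstream of all members, since WRKY factors are known to regulate WRKY genes. The window was the 300 bases before the annotated gene start, and the motif was TTGACC or TTGACT on either strand. At least 1 match was present in 29 of 67 members, or 43.3%, and in 8855 of 27443 protein-coding genes, or 32.3%. There were 2 or more in 10 members, or 14.9%, and in 7.91% of protein-coding genes. The share was 42.9% among expressed members and 44.4% among the other 18, and in group III it was 8 of 12, or 66.7%. Those in group III were WRKY41 and WRKY53, and WRKY30, WRKY55, WRKY62, WRKY64, WRKY66 and WRKY67, which were not expressed. Shares were not taken for the other subgroups, which also held matches, as in WRKY33 of group I and WRKY17 of group IId.

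The windows of WRKY70 and WRKY41 are shown because these genes had the smallest p-values and lay in opposite directions. Capitals mark W-box matches, which read GGTCAA or AGTCAA where the motif is on the other strand. The window of WRKY70 holds no such match, though it does hold the shorter core TTGAC on the other strand. That of WRKY41 holds 2 matches, as does that of WRKY53, whose groups overlapped. Whether matches go with the direction of a difference was not tested.
WRKY70 upstream, chr3:20910624-20910923, minus strand: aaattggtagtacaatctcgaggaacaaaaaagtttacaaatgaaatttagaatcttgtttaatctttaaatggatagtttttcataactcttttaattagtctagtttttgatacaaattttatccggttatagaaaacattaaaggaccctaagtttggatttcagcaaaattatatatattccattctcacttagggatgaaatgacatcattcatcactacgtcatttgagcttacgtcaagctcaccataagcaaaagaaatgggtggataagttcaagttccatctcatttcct
WRKY41 upstream, chr4:6758798-6759097, plus strand: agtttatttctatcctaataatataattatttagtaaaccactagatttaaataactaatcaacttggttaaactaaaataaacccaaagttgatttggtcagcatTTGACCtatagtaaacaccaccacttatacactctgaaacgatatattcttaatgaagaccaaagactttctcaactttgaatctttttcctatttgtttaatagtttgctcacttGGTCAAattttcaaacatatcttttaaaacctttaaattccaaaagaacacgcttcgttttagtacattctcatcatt
A match describes these letters and is not a site shown to be bound. WRKY33 had the most matches among expressed members, with 3.

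**Figure D5:**
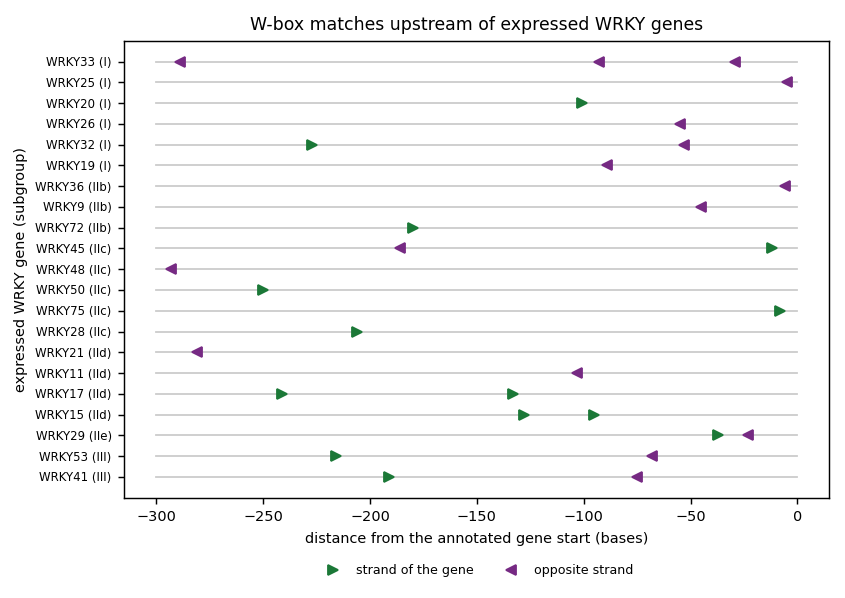
Position of W-box matches in the 300 bases upstream of the 21 expressed WRKY genes that hold one, as distance from the annotated gene start in bases, with the direction of each triangle giving the strand. Matches lie across the whole window, and WRKY33 holds 3.

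Upstream of WRKY factors, immune receptors and MAP kinases were mostly present and did not pass the test. Of 16 listed genes, 15 were matched and 13 tested. By edgeR 0 were called, against 0.0105% of all loci, and 1 had an unadjusted p under 0.05, against 7.46%. Log2 fold changes were positive for 9 and negative for 4, with a median of 0.22. Over all loci 52.5% were positive and the median was 0.05. MEKK1, the kinase at the head of the cascade that ends in MPK4 and WRKY33, was at 29.9, 26.5 and 26.8 CPM in traffic noise and at 10.7, 15.6 and 6.74 CPM in control. All traffic noise libraries were higher, and its log2 fold change was 1.33 ± 0.39 (edgeR quasi-likelihood test, unadjusted p = 0.00625, adjusted p = 0.493), or 1.08 without control replicate 3.

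The next in that list were small or uneven. MEK1, also called MKK1, which acts between MEKK1 and MPK4, was at 6.30, 0 and 3.32 CPM in traffic noise and at 1.08, 0 and 0 CPM in control, with overlap at 0. PEPR1, a receptor for danger peptides, was at 17.1, 12.3 and 10.2 CPM in traffic noise and at 10.4, 7.59 and 10.5 CPM in control, again overlapping (log2 fold change 0.48 ± 0.45). MPK3, the kinase that phosphorylates WRKY33, had a log2 fold change of -0.04 ± 0.34, and MPK6, its close relative, one of 0.22 ± 0.42; these 2 were added for their role.

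Genes for proteins that bind WRKY factors gave 6 tested of 10 listed, with 0 called. They had 4 positive and 2 negative log2 fold changes and a median of 0.29. Over all loci 0.0105% were called, 52.5% were positive and the median was 0.05. IKU1, a VQ protein that works with WRKY10 in the endosperm, was at 22, 20.7 and 16.1 CPM in traffic noise and at 16.5, 17.5 and 8.18 CPM in control, where replicates 1 and 2 overlapped traffic noise. AT3G22160, the VQ gene known as JAV1, a repressor of jasmonate defence, was at 1.77, 2.07 and 4.2 CPM in traffic noise and at 1.23, 1.31 and 0 CPM in control. It did not overlap, with a log2 fold change of 1.66 ± 1.80. HD1, the histone deacetylase gene HDA19, whose product binds WRKY38 and WRKY62, was at 112, 121 and 69.1 CPM in traffic noise and at 116, 100 and 139 CPM in control, with overlap.

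Some genes known to lie downstream of WRKY factors had no counts. Over the whole table, 23513 of 32921 named loci had at least 1 count. Of the 26 genes listed here, 25 were matched, 12 had enough counts to test, and 10 had no count in any library. The silent ones included the salicylate marker genes PR1, BGL2 and PR5, the flagellin marker FRK1, the camalexin genes CYP71A12 and CYP71A13, the salicylate conjugating gene PBS3, the senescence genes SAG12 and SAG13, and the jasmonate repressor gene JAZ8. Of the 12 tested, 0 were called by edgeR, against 0.0105% of all loci. Their log2 fold changes were positive for 7 and negative for 5, with a median of 0.12, against 52.5% positive and 0.05 over all loci.

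GL2, which fixes epidermal cell fate and acts after the WRKY factor TTG2 in hair and seed coat development, was at 132, 105 and 117 CPM in traffic noise and at 258, 162 and 463 CPM in control. All traffic noise libraries were lower, with a log2 fold change of -1.32 ± 0.34, or -0.83 without control replicate 3, its highest library. It did not pass edgeR (adjusted p = 0.468, unadjusted p = 0.00286), while DESeq2 gave an adjusted p of 0.012. The root marker MYB66, which acts before GL2 in the root epidermis, was added here. It was at 5.56, 7.23 and 6.60 CPM in traffic noise and at 13.9, 8.35 and 14.7 CPM in control. Its log2 fold change was -0.93 ± 0.49, and its part in the GL2 result was not tested. Of the 5 tested root markers, 2 had positive and 3 negative log2 fold changes, 1 lay wholly lower and 0 were called.

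CBP60G, a calmodulin-binding activator of salicylate synthesis, had 63 counts over the traffic noise libraries and 0 over the control libraries. Its levels were 0.542, 1.62 and 0.928 CPM in traffic noise (edgeR quasi-likelihood test, unadjusted p = 0.0309, adjusted p = 0.620). Against a floor of 3 counts over the control group that is at least 19.3-fold higher, for counting error only. The spread between libraries is not in that bound. EDS16, which encodes the isochorismate synthase that CBP60G activates, lay the other way, at 5.96, 7.83 and 12.3 CPM in traffic noise and at 15.6, 9.94 and 19 CPM in control. These groups overlapped in control replicate 2, with a log2 fold change of -0.77 ± 0.48.

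There are 5 more WRKY family genes in the tables under other symbols, which the choice by symbol leaves out; they were looked up by name, and ABO3 was added after its values were seen. ABO3, also called WRKY63, which acts in abscisic acid responses, was at 1.97, 2.26 and 1.37 CPM in traffic noise and at 0 in all 3 control libraries. That is 114 counts against 0 (edgeR quasi-likelihood test, unadjusted p = 0.0146, adjusted p = 0.527). On a floor of 3 counts over the control group it is at least 34.9-fold higher, for counting error only. Spread between libraries is left out of that bound. TTR1, for example, was at 5.74 and 7.53 CPM in control replicates 1 and 2 and at 0 in control replicate 3. ZAP1, also called WRKY1, lay wholly lower, at 6.30, 8.86 and 12.1 CPM in traffic noise and at 16.8, 14.1 and 16.5 CPM in control (log2 fold change -0.80 ± 0.43). The disease resistance genes RRS1 and TTR1 and the epidermal gene TTG2 overlapped between groups, with log2 fold changes of 0.02 ± 0.82, -0.86 ± 1.58 and -0.58 ± 2.53.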

How the data were processed

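For each library the authors deposited whole-number counts by gene symbol, which are not normalized. The submitters' processing notes name Bowtie2, bedtools and the build TAIR10. The sources used here do not give versions, counting rules, strand use or the treatment of reads with several matches. Each table had 33139 entries; 218 without a gene name, with 0.0431% to 0.0886% of counts, stayed out of every total and test.

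Loci kept by edgeR's filterByExpr (19112) were tested with edgeR's quasi-likelihood test (robust fit, TMM factors, all 6 libraries, group as the only term) with Benjamini-Hochberg adjustment over all loci at 0.05. The standard error of a log2 fold change is its size over the square root of F. DESeq2 and limma-voom were run as alternatives, with another scaling, other filters, the replicate number as a block, and each library left out in turn. Same-numbered libraries of the 2 groups did not deviate together (r = -0.01, 0.01 and 0.02 across loci), so numbers were not taken as pairs. The scripts were tested on simulated data.

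Named members were group IIa, the 8 with the smallest p, the 8 with the highest mean CPM and 13 much-studied members where expressed, plus up to 3 genes with the smallest p per pathway list. Other genes are stated as added. The members, lists and rules were chosen with earlier results of these data known. Subgroups follow the usual classification of the family and were checked against the coding sequences. Gene models, sequences and overlaps are from RefSeq's TAIR10.1 annotation, which may differ from the annotation behind the counts. Of listed genes, FLS2, VQ10, VQ12 and NIMIN2 were matched to no single entry. Identity between members was taken from BLASTN alignments. Software was R 4.3.3, edgeR 4.0.16, DESeq2 1.42.0, limma 3.58.1, BLASTN 2.17.0, Python 3.11.15, pandas 2.3.3 and matplotlib 3.10.9.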

Additional observations from a re-analysis of the deposited data

How the results depend on the processing

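In all 13 settings run, edgeR, DESeq2 or limma-voom called 0 WRKY members, and WRKY70 kept a positive log2 fold change (1.09 to 1.45, adjusted p 0.183 to 1) and WRKY41 a negative one (-2.76 to -1.92, adjusted p 0.301 to 1). The ranges of adjusted p leave out DESeq2, which gave WRKY70 and WRKY41 none, so that neither could be called there. Their unadjusted p by DESeq2's test was 0.00263 and 0.0108. Over the whole table, where edgeR called 2 loci, 6 were called without a filter on low counts, 214 by DESeq2, 12 by limma-voom, 0 with the replicate block, and 0 to 31 with 1 library left out. The median of tested members, 0.32, was 0.67 by limma-voom, 0.59 with the replicate block, and 0.20 to 0.74 with 1 library left out. Without control replicate 2, 9 of 48 tested members had an unadjusted edgeR p under 0.05, against 2559 of 19871 loci, or 12.9%. Among members overlapping no other protein-coding locus, a choice made after the data were seen, the median was 0.46. Of 372 single-gene values under alternatives, 352 kept direction and call, 19 in 7 genes changed sign, and 1, GL2 by DESeq2 (-1.34, adjusted p 0.012), passed. WRKY18 was 0.30 by limma-voom and with the block, and -0.70 to 0.26 with 1 library left out. WRKY60 was 0.81, 0.35, and -1.48 to 0.70 in the same order. WRKY46 was 0.14 with the block and -1.22 to 0.48 with 1 library left out. With 1 library left out, WRKY39 ran from -0.13 to 0.31, WRKY22 from -0.19 to 0.66, WRKY33 from -0.45 to 0.13, and WRKY53 from -1.51 to 0.02. The cause of these changes was not tested. Expressed members numbered 44 to 50. With 3 libraries per group, standard errors of 0.34 to 2.57 limit what could be detected.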
